A study of Oryza sativa with 18 samples.

Results

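Young panicles of the photo-thermosensitive genic male sterile rice line Wuxiang S (WXS) were compared at the meiosis stage (P3), when the plants were fertile, WXS (F), and when they were sterile, WXS (S). The comparison takes 3 libraries of fertile panicles (FP3) and 3 of sterile panicles (SP3), out of 18 libraries that also cover pollen mother cell formation (P2) and microspore formation (P4). Its members are the coding genes that reached 10 counts in 3 or more of these 6 libraries, which were 24452 of the 47919 genes in the table. WXS is an indica line, and both groups carry the same genotype. FP3 plants had been moved at a panicle length of about 1 cm from the field to an incubator with 12 h of light and 12 h of dark at about 21 °C for 3 to 4 weeks, and had normal anthers. SP3 plants stayed in the field at daily means above 24 °C with days longer than 12 h, and formed no pollen. Temperature, day length, incubator or field, and fertility therefore cannot be told apart in any value below. The ages of the plants are not given in the labels.

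A line of this kind is useful in two-line hybrid breeding because the same seed stock sets its own seed under cool short days and serves as a pollen-free mother under warm long days. Male fertility depends on the anther, where pollen mother cells pass through meiosis while the surrounding tapetum nourishes them and later supplies material for the pollen wall. A young panicle holds these cells together with glumes, lodicules, pistils and stem tissue. In such bulk samples, fewer cells of a type and less RNA per cell cannot be told apart. Known anther and meiosis markers could not be checked, since no table used here pairs the locus identifiers with their names. Names are given only where the study pairs them with a locus, and those genes were chosen by the study from these same libraries, as parents of circular RNAs that differed between groups or as predicted microRNA targets. Their directions are therefore not independent evidence.

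Coding-gene counts totalled 41977738 to 50706690 in FP3 and 30577833 to 51193158 in SP3, with SP3-2 the shallowest. Values below are CPM, counts scaled to a common library total with TMM factors, and folds are FP3 over SP3. A gene was called at a Benjamini-Hochberg adjusted P below 0.05 in the quasi-likelihood test of edgeR if its log2 fold change was also 1 or more in size. The first principal component took 72.5% of the variance and separated FP3 from SP3, and the second took 10.7% and set SP3-2 apart from SP3-1 and SP3-3. Log2 CPM values of FP3 libraries correlated at 0.983 to 0.985 across genes, those of SP3-1 and SP3-3 at 0.980, and those of SP3-2 with the other SP3 libraries at 0.970 and 0.972. In the study's read summary SP3-2 also has the largest share of reads with several mapping positions. Counts and the main values are therefore also given without SP3-2.

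More genes rose than fell in fertile panicles at meiosis. Of the 24452 genes, 3646 rose, which is 14.9%, and 1625 fell, which is 6.65%. The median change of the genes that rose was 2.29 on the log2 scale, and 1348 of them (37.0%) rose at least 8-fold. The median size of the falls was 1.61, and 463 genes fell at least 8-fold. In 218 of the genes that rose no count was found in any SP3 library, and in 86 of those that fell none was found in any FP3 library, so that their fitted folds are not bounds. The CPM ranges of the groups did not overlap, with FP3 above, for 31.3% of all tested genes and, with FP3 below, for 25.8%. The median log2 fold change over all tested genes was 0.04.

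The genes with the smallest P had nearly equal values within each group. LOC_Os07g05365 had 116, 117 and 115 CPM in FP3, against 4.31, 4.54 and 4.49 CPM in SP3. LOC_Os08g08970 had 182, 184 and 186 CPM in FP3 and 0.907, 1.09 and 0.804 CPM in SP3. These genes rose by 4.71 ± 0.08 and 7.63 ± 0.13 (log2, SE), with an adjusted P of 4.42e-06 for each in edgeR. Among the genes that fell, LOC_Os12g38900 had 3.37, 2.84 and 3.84 CPM in FP3 and 69.7, 80.6 and 69.6 CPM in SP3. LOC_Os10g24954 had 5.16, 5.35 and 5.45 CPM in FP3 and 28.5, 26.6 and 28.0 CPM in SP3. Their log2 fold changes were -4.45 ± 0.15 and -2.38 ± 0.10, with adjusted P values of 1.41e-05 and 2.4e-05 in edgeR. The functions of these 4 loci are not annotated in the sources used here.

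Of the 105 genes that the study names, 103 were tested, 13 rose (12.6%) and 3 fell (2.91%). Over all tested genes 14.9% rose and 6.65% fell, so neither share of the named genes was above that of all genes. The median log2 fold change of these 103 genes was 0.18. They were sorted here into 9 functional groups, of which 5 held calls. In the other 4 groups, RNA processing and translation, ubiquitin and protein folding, kinases and phosphatases, and transport, no gene passed both thresholds. Another 30 of the 103 genes had an adjusted P below 0.05 with a change of less than 2-fold in either direction. The same held for 5200 of all 24452 tested genes. Without SP3-2, 13 rose and 4 fell.

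**Figure D1:**
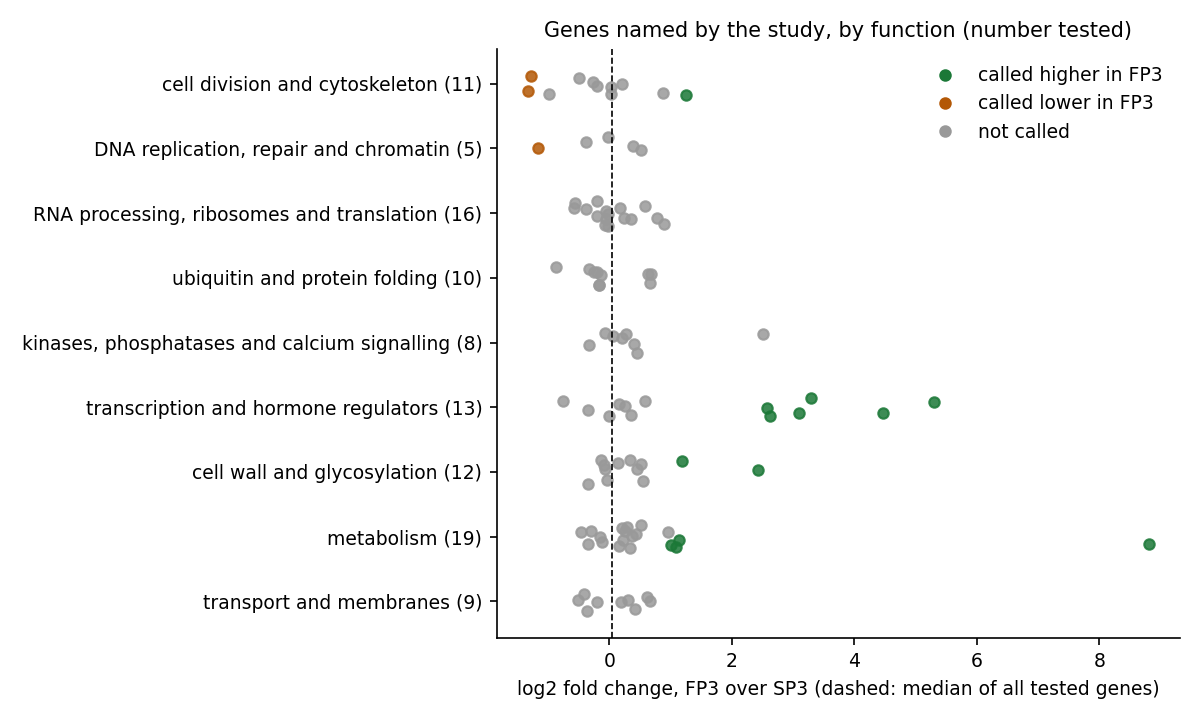
The log2 fold change of FP3 over SP3 is plotted for each of the 103 tested genes in their 9 functional groups, with 1 point per gene and the number tested beside each group. The row of transcription and hormone regulators holds the most genes that rose, 6 of 13 (46.2%), against 14.9% of all tested genes. Of these 6 genes, 5 are NAC genes that the study lists as predicted microRNA targets. The point farthest to the right is germacrene D synthase at 8.80.

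Transcription factors of the NAC family made up most of the rises among regulators. NAC proteins are plant-specific transcription factors of organ boundaries, senescence and stress responses, and several of them are silenced by the conserved microRNA miR164. The OMTN genes of rice take their name from this microRNA. Of 6 NAC genes measured, 5 rose in FP3 and 1 did not pass the test. Over all tested genes 14.9% rose.

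OMTN1 had 13, 14.2 and 10.8 CPM in FP3 and 0.268, 0.225 and 0.445 CPM in SP3. It rose 39.6-fold, by 5.31 ± 0.30 (log2, SE; adjusted P = 6.55e-05 in edgeR). OMTN6 had 8.51, 8.88 and 8.79 CPM in FP3 and 0.495, 0.161 and 0.487 CPM in SP3. For both genes every fertile library lay above every sterile library, and the SP3 values came from few reads, 7 to 21 for OMTN1 and 5 to 24 for OMTN6. OMTN6 rose by 4.47 ± 0.39 (adjusted P = 0.000334 in edgeR).

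OMTN3 had 11.1, 9.84 and 10.8 CPM in FP3 and 1.18, 1.13 and 1.38 CPM in SP3. OMTN4 had 3.53, 3.83 and 3.67 CPM in FP3 and 0.392, 0.322 and 0.402 CPM in SP3. OsNAC2 had 8.96, 9.40 and 8.02 CPM in FP3 and 1.44, 1.64 and 1.21 CPM in SP3. The groups did not overlap for any of these 3 genes, and they rose by 3.10, 3.29 and 2.62 on the log2 scale, with adjusted P values of 5.87e-05, 0.000138 and 0.000166 in edgeR. Between genes, per kilobase of gene length, OMTN1 had the highest FP3 level of the NAC genes, at 7.57 CPM per kb, and OMTN5 the lowest, at 1.46 CPM per kb. Whether the deposited lengths include introns is not given, so this ranking is uncertain.

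OMTN5 behaved differently from the other members. It had 1.55, 1.74 and 1.63 CPM in FP3 and 1.67, 1.67 and 4.97 CPM in SP3, and its log2 fold change of -0.76 ± 0.47 did not pass the test (adjusted P = 0.239 in edgeR). The groups overlapped, and SP3-3 alone was high. Without SP3-2 the rises of OMTN1, OMTN3, OMTN4, OMTN6 and OsNAC2 were 5.07, 2.98, 3.13, 4.07 and 2.66, and all 5 stayed called.

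**Figure D2:**
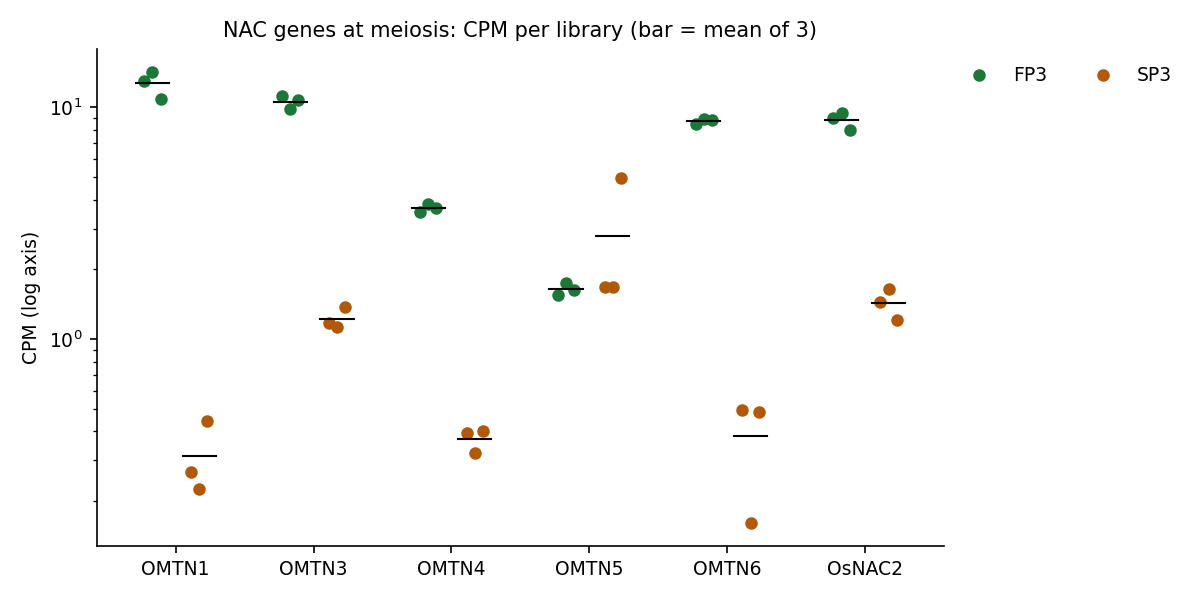
CPM of 6 NAC genes in each library is plotted on a log axis, FP3 at the left and SP3 at the right of each gene, with a bar for the mean of 3. The FP3 points lie above the SP3 points for 5 genes, and for OMTN5 the groups overlap, with SP3-3 at 4.97 CPM.

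The study's list of predicted miR164 targets holds 22 genes, of which 18 were tested. Of these, 9 rose (50%) and none fell, against 14.9% and 6.65% over all tested genes, with a median log2 fold change of 0.90 against 0.04. The list includes the NAC genes above, and the other 4 that rose carry no name in the sources used here. Without SP3-2, 8 rose. The predicted targets of miR812, 17 genes of which 14 were tested, held 1 gene that rose and 4 that fell, with the same counts without SP3-2. Those of miR439, 29 genes of which 9 were tested, held 2 that rose and 1 that fell, and without SP3-2 they held 2 that rose and 3 that fell. OsHsfC1a, a heat stress transcription factor among the predicted miR164 targets, had 1.31, 1.41 and 1.85 CPM in FP3 and 0.784, 1.16 and 1.10 CPM in SP3, with a log2 fold change of 0.59 ± 0.29 that did not pass the test (adjusted P = 0.151 in edgeR).

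Among the hormone-related genes, the auxin-repressed protein, a member of a family induced in resting tissue, rose. It had 390, 369 and 361 CPM in FP3 and 68.1, 48.3 and 71.1 CPM in SP3, a rise of 2.58 ± 0.16 (log2, SE; adjusted P = 9.03e-05 in edgeR). Auxin response factor 3, a transcription factor of floral patterning in Arabidopsis, averaged 58.9 ± 1.78 CPM in FP3 and 52.6 ± 5.11 CPM in SP3 (SD, n = 3 each). OsGAI, the DELLA protein that represses gibberellin responses, averaged 90.7 ± 5.81 CPM in FP3 and 90.8 ± 17.2 CPM in SP3. The groups overlapped for both genes, and neither passed the test. Without SP3-2 the log2 fold changes of these 3 genes were 2.35, 0.16 and -0.04.

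The largest change of any named gene was in terpene metabolism. Germacrene D synthase makes a volatile sesquiterpene from farnesyl diphosphate. It had 367, 371 and 368 CPM in FP3, against 0.495, 1.90 and 0.275 CPM in SP3. The fertile libraries were nearly equal, while the sterile libraries held 13 to 59 reads each, with SP3-2 the highest. The rise was 447-fold, or 8.80 ± 0.68 on the log2 scale (adjusted P = 0.0002 in edgeR), and 9.82 without SP3-2.

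In primary metabolism 3 more genes rose, each by about 2-fold. Soluble starch synthase 3, which elongates the chains of amylopectin, had 218, 225 and 212 CPM in FP3 and 87.4, 126 and 84.1 CPM in SP3. It rose by 1.14 ± 0.16 (adjusted P = 0.00216 in edgeR), and SP3-2 lay closest to the fertile libraries. Uridine nucleosidase, of pyrimidine breakdown, averaged 55.9 ± 2.11 CPM in FP3 and 26.2 ± 0.932 CPM in SP3 and rose by 1.09. A subunit of 2-oxoisovalerate dehydrogenase, of branched-chain amino acid breakdown, averaged 54.8 ± 2.75 CPM in FP3 and 27.2 ± 1.72 CPM in SP3 and rose by 1.01. The last value lies at the fold threshold, and without SP3-2 it was 0.98.

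Of the 19 metabolic genes 4 rose (21.1%, against 14.9% of all tested genes) and none fell, with the same counts without SP3-2, and 8 more had an adjusted P below 0.05 with a smaller change, as had 5200 of all 24452 genes. Gamma-glutamylcyclotransferase, of glutathione breakdown, was one of these. It had 45.3, 44.1 and 44.6 CPM in FP3 and 20.6, 27.5 and 20.6 CPM in SP3, a log2 fold change of 0.96 ± 0.14 that became 1.04 without SP3-2. The product of flo2 promotes the build-up of storage starch in the endosperm, and flo2 averaged 56.9 ± 0.682 CPM in FP3 and 78.4 ± 2.39 CPM in SP3, a log2 fold change of -0.46 ± 0.07 (adjusted P = 0.00212 in edgeR). For flo2 the groups did not overlap although the change was under 2-fold. The cytoplasmic aldolase of glycolysis varied widely within SP3, with 423, 576 and 297 CPM, against 492, 475 and 481 CPM in FP3, and did not pass the test.

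Among 12 genes of the cell wall and glycosylation, 2 rose and none fell. The share that rose, 16.7%, is near the 14.9% of all tested genes. Trichome birefringence-like 38 belongs to a family that acetylates wall polysaccharides. It had 30.5, 32.1 and 31.2 CPM in FP3 and 6.56, 6.86 and 4.09 CPM in SP3, a rise of 2.42 ± 0.21 (log2, SE; adjusted P = 0.000314 in edgeR). Cinnamoyl-CoA reductase 1, of the entry step to lignin monomers, had 53.0, 46.4 and 51.1 CPM in FP3 and 21.2, 23.3 and 21.6 CPM in SP3, a rise of 1.19 ± 0.10 (adjusted P = 0.000237 in edgeR). For both genes the groups were apart in every library, and without SP3-2 the rises were 2.48 and 1.16. Beta-galactosidase 15 averaged 178 ± 6.52 CPM in FP3 and 141 ± 4.03 CPM in SP3, and its log2 fold change of 0.34 stayed under the threshold.

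Aurora kinase, OsOSD1 and FSM were the named genes that fell in FP3. Of 11 genes of cell division and the cytoskeleton, 2 fell (18.2%) and 1 rose (9.09%), and of 5 genes of DNA replication, repair and chromatin, 1 fell (20%), against 6.65% lower and 14.9% higher over all tested genes. With so few genes these shares are a description only. Aurora kinase, which corrects the attachment of chromosomes to the spindle, had 9.02, 9.29 and 10.4 CPM in FP3 and 23.5, 24.2 and 24.3 CPM in SP3. It fell to 9.56 ± 0.716 CPM in FP3, against 24.0 ± 0.446 CPM in SP3 (SD, n = 3 each), a log2 fold change of -1.33 ± 0.11 (adjusted P = 0.000226 in edgeR). FSM is a subunit of chromatin assembly factor 1, which places histones on newly made DNA, and it had 15.3, 16.3 and 14.7 CPM in FP3 and 36.6, 34.4 and 32.9 CPM in SP3, a log2 fold change of -1.16 ± 0.10 (adjusted P = 0.000305 in edgeR). For both genes every fertile library lay below every sterile one, and the spread within each group was small. Without SP3-2 their log2 fold changes were -1.39 and -1.24.

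OsOSD1 is needed to pass from the first to the second meiotic division. It had 2.84, 4.43 and 4.59 CPM in FP3 and 12.1, 7.82 and 8.85 CPM in SP3, a log2 fold change of -1.28 ± 0.26 (adjusted P = 0.00855 in edgeR). SP3-1 was highest and FP3-1 lowest, and the groups did not overlap. A NACK1-like kinesin, of a type that drives cell plate growth in tobacco, had 25.6, 24.5 and 25.6 CPM in FP3 and 44.2, 53.1 and 53.1 CPM in SP3. Its log2 fold change of -0.99 ± 0.10 (adjusted P = 0.000641 in edgeR) lies just under the fold threshold, and without SP3-2 it was -1.02, so that it was called there. Cyclin-B1-3 averaged 4.86 ± 0.644 CPM in FP3 and 5.85 ± 1.93 CPM in SP3 with overlapping groups.

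Formin-like protein 20, of a family that nucleates actin filaments, went the other way. It had 263, 272 and 269.6 CPM in FP3 and 115, 108 and 114 CPM in SP3, a rise of 1.25 ± 0.07 (adjusted P = 5.94e-05 in edgeR). Formin-like protein 6 had 66.7, 67.7 and 73.7 CPM in FP3 and 96.6, 84.6 and 111 CPM in SP3, with a log2 fold change of -0.49 ± 0.11. The difference between the formins was not tested. Among the DNA repair genes, DNA topoisomerase 3-alpha, which undoes crossover intermediates, averaged 22.1 ± 0.44 CPM in FP3 and 28.9 ± 1.62 CPM in SP3. DNA ligase 1 had 51.5, 49.8 and 47.7 CPM in FP3 and 30.7, 43.1 and 30.4 CPM in SP3, and ATM kinase, a sensor of DNA breaks, 191, 191 and 179 CPM in FP3 and 128, 178 and 126 CPM in SP3. In both of the last genes SP3-2 stood close to the fertile libraries, and without it the log2 fold changes were 0.63 and 0.49, in place of 0.52 and 0.38.

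Ubiquitin and protein folding are of interest because a well known thermosensitive sterility gene of rice, tms5, acts on transcripts of ubiquitin fused to ribosomal protein L40. None of the 10 genes of this group passed both thresholds. A gene annotated as 60S ribosomal protein L40-1 had 139.9, 141 and 151 CPM in FP3 and 255, 349 and 187 CPM in SP3, a log2 fold change of -0.87 ± 0.21 (adjusted P = 0.0173 in edgeR). All fertile libraries lay below all sterile ones. The value was -0.69 without SP3-2 and -1.09, past the fold threshold, without SP3-3. A polyubiquitin gene had 7570, 259.7 and 7129 CPM in FP3 and 3557, 2770 and 2986 CPM in SP3, so that FP3-2 alone was far below its group. Its log2 fold change of 0.68 ± 0.97 did not pass the test, and without FP3-2 it was 1.2 with an adjusted P of 0.00685 in edgeR. Both belong to gene families with near-identical copies, among which the counting may have split reads, so their values are uncertain.

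The Hsp70-Hsp90 organizing protein, a co-chaperone that hands clients between both heat shock proteins, had 253, 258 and 258 CPM in FP3 and 157, 153 and 184 CPM in SP3. A UBP12-like deubiquitinase had 186, 181 and 182 CPM in FP3 and 119.7, 105 and 121 CPM in SP3. Both had log2 fold changes under 1, at 0.64 ± 0.09 and 0.67 ± 0.08, although their groups did not overlap and the adjusted P values were 0.00232 and 0.00124 in edgeR.

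The remaining groups held no called gene. Of 16 genes of RNA processing and translation, 4 had an adjusted P below 0.05, with log2 fold changes between -0.58 and 0.89 over the whole group. A CPSF30-like gene of mRNA 3' end formation on chromosome 3 averaged 1857 ± 13.1 CPM in FP3 and 1078 ± 51.5 CPM in SP3, a log2 fold change of 0.78 ± 0.09. Ribosomal RNA-processing protein 8 averaged 32.9 ± 2.30 CPM in FP3 and 49.3 ± 7.74 CPM in SP3, a log2 fold change of -0.58. Among 9 transport genes, an ERD6-like sugar transporter averaged 17 ± 1.06 CPM in FP3 and 10.7 ± 0.988 CPM in SP3, and NSF, which recycles membrane fusion complexes, averaged 160.1 ± 1.35 CPM in FP3 and 206 ± 0.932 CPM in SP3. OsPT6, a phosphate transporter, reached at most 3 counts in any library of either group and was not tested.

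Of 8 kinases, phosphatases and calcium-signalling genes, the largest fitted change was in OsPP108, a protein phosphatase 2C of abscisic acid signalling. It had 33.9, 31.6 and 37.9 CPM in FP3 and 0, 8.92 and 9.40 CPM in SP3. The groups did not overlap, but SP3-1 held 0 reads where the other sterile libraries held 277 and 444, and the log2 fold change of 2.50 ± 1.23 did not pass the test (adjusted P = 0.148 in edgeR). Without SP3-1 it was 1.87 with an adjusted P of 0.000804. At the other stages FP2-1, SP2-2 and SP4-3 also held 0 CPM of OsPP108. The 0 is thus not particular to SP3-1, its source was not tested, and the values of this gene are uncertain. Protein phosphatase 2C 48 averaged 90.7 ± 1.86 CPM in FP3 and 66.3 ± 7.48 CPM in SP3, and a phosphatidylinositol 3-kinase on chromosome 5 averaged 131 ± 0.508 CPM in FP3 and 108 ± 2.35 CPM in SP3, with log2 fold changes of 0.45 and 0.28. IQ-domain protein 31, of a calmodulin-binding family, had 63.4, 64.1 and 68.5 CPM in FP3 and 94.2, 66.8 and 85.9 CPM in SP3. Its log2 fold change of -0.33 did not pass the test, with SP3-2 inside the range of the fertile libraries, and without SP3-2 it was -0.53 with an adjusted P of 0.00207 in edgeR.

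The study's annotation places 7 of the parental genes in pollen development. Of these, cinnamoyl-CoA reductase 1 rose, FSM fell and 5 were not called, and without SP3-2 the NACK1-like kinesin also counted among those that fell. Of 7 parental genes annotated to the response to temperature, cinnamoyl-CoA reductase 1 rose, and Aurora kinase and FSM fell. These sets of few genes share members. The shares that rose, 14.3% in each, stand beside 14.9% over all tested genes, and the shares that fell, 14.3% for pollen development and 28.6% for the response to temperature, beside 6.65%.

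The change at meiosis was then compared with the changes at P2 and P4. The difference between the FP3 over SP3 change and the mean of the changes at P2 and P4 was tested in a fit of all 18 libraries at the same thresholds, and it was called positive for 1641 genes (6.71%) and negative for 626 genes (2.56%). Without SP3-2 it was called positive for 2015 genes and negative for 690. The fit took only the genes that passed the count filter at P3. Genes that would pass it at P2 or P4 alone were left out. Of the genes fitted, 11.3% rose and 7.27% fell at P2, and 12.4% rose and 7.03% fell at P4. These are not shares of all genes expressed at those stages. Of the 3646 genes that rose at P3, 1691 (46.4%) also rose at P2 and 2152 (59.0%) at P4, while 170 fell at P2 and 38 at P4. Of the 1625 genes that fell at P3, 564 (34.7%) fell at P2 and 739 (45.5%) at P4. The libraries of the 3 stages are separate, so no control is shared between them.

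Several named genes carried a larger change at meiosis than the mean of the changes at P2 and P4. OMTN1 rose by 2.98 at P2 and by 2.97 at P4 on the log2 scale, and the stage difference was 2.33 ± 0.31 (SE; adjusted P = 6.46e-05 in edgeR). OMTN6 rose by 3.91 at P2 and 2.52 at P4, with a stage difference of 1.25 ± 0.40 (adjusted P = 0.0349 in edgeR). Its rise at P2, 3.91 ± 0.35, was close to that at P3, 4.47 ± 0.39. Germacrene D synthase rose by 7.40 at P2 and 6.71 at P4, with a stage difference of 1.76 ± 0.46. These genes were thus higher in fertile panicles at every stage. OMTN3, OMTN4 and OsNAC2 had stage differences of 0.31, 1.00 and 0.32 that did not pass the test.

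Soluble starch synthase 3 had negative log2 fold changes outside meiosis, -0.68 ± 0.13 at P2 and -0.31 ± 0.13 at P4. That at P2 was under the fold threshold, and that at P4 did not pass the test (adjusted P = 0.0709 in edgeR). On the scale of the 18-library fit the gene averaged 144 ± 4.55 CPM in FP2 and 230 ± 38.5 CPM in SP2. It then averaged 215 ± 6.04 CPM in FP3 and 97.9 ± 23.1 CPM in SP3, and 114 ± 1.75 CPM in FP4 and 141 ± 6.20 CPM in SP4. Its level in fertile panicles was thus highest at P3, the stage at which sterile panicles were lowest. The stage difference was 1.63 ± 0.16 (adjusted P = 3.62e-06 in edgeR). The 2-oxoisovalerate dehydrogenase subunit had log2 fold changes of -0.57 at P2 and 0.18 at P4, with a stage difference of 1.21 ± 0.15. The Hsp70-Hsp90 organizing protein fell at P2, by -1.02 ± 0.07 (adjusted P = 9.45e-09 in edgeR), with 135 ± 3.42 CPM in FP2 and 275 ± 14.7 CPM in SP2. Its log2 fold changes were 0.64 at P3 and 0.47 at P4. The stage difference of this gene, 0.91 ± 0.08, stayed under the fold threshold.

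The cytoplasmic aldolase averaged 264 ± 11.4 CPM in FP2 and 1433 ± 80.7 CPM in SP2, 476 ± 8.63 CPM in FP3 and 426 ± 138 CPM in SP3, and 490 ± 14.7 CPM in FP4 and 894 ± 62.3 CPM in SP4. It was lower in fertile panicles at P2 and P4 and did not differ past the threshold at P3, with a stage difference of 1.81 ± 0.19 (adjusted P = 8.14e-06 in edgeR). A GDSL esterase, of a family of lipid hydrolases, was close to equal at P3 with 8.56 ± 0.798 CPM in FP3 and 7.30 ± 1.63 CPM in SP3, but averaged 81.2 ± 19.6 CPM in FP4 against 7.60 ± 0.519 CPM in SP4, and its stage difference was -1.65 ± 0.22.

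Aurora kinase, FSM and the NACK1-like kinesin had positive log2 fold changes at P2 and negative ones at P3 and P4, though that of Aurora kinase at P2, 0.30 ± 0.13, did not pass the test (adjusted P = 0.0769 in edgeR). Other genes of the group kept their sign, as OsOSD1 with -0.43 at P2 and -1.28 at P3, and formin-like protein 6 with -0.41 and -0.49. Aurora kinase averaged 37.4 ± 7.78 CPM in FP2 and 30.4 ± 2.80 CPM in SP2, 9.44 ± 0.707 CPM in FP3 and 23.7 ± 0.44 CPM in SP3, and 3.74 ± 0.232 CPM in FP4 and 12.5 ± 1.16 CPM in SP4. Its level thus declined over the stages in both kinds of panicle and was lower in the fertile ones from meiosis on. The log2 fold changes of FSM were 0.66 ± 0.08 at P2 and -1.70 ± 0.08 at P4, and those of the NACK1-like kinesin 0.57 ± 0.09 and -1.62 ± 0.10. The stage differences of Aurora kinase, FSM and the kinesin, -0.61, -0.64 and -0.46, passed the adjusted P but not the fold threshold.

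**Figure D3:**
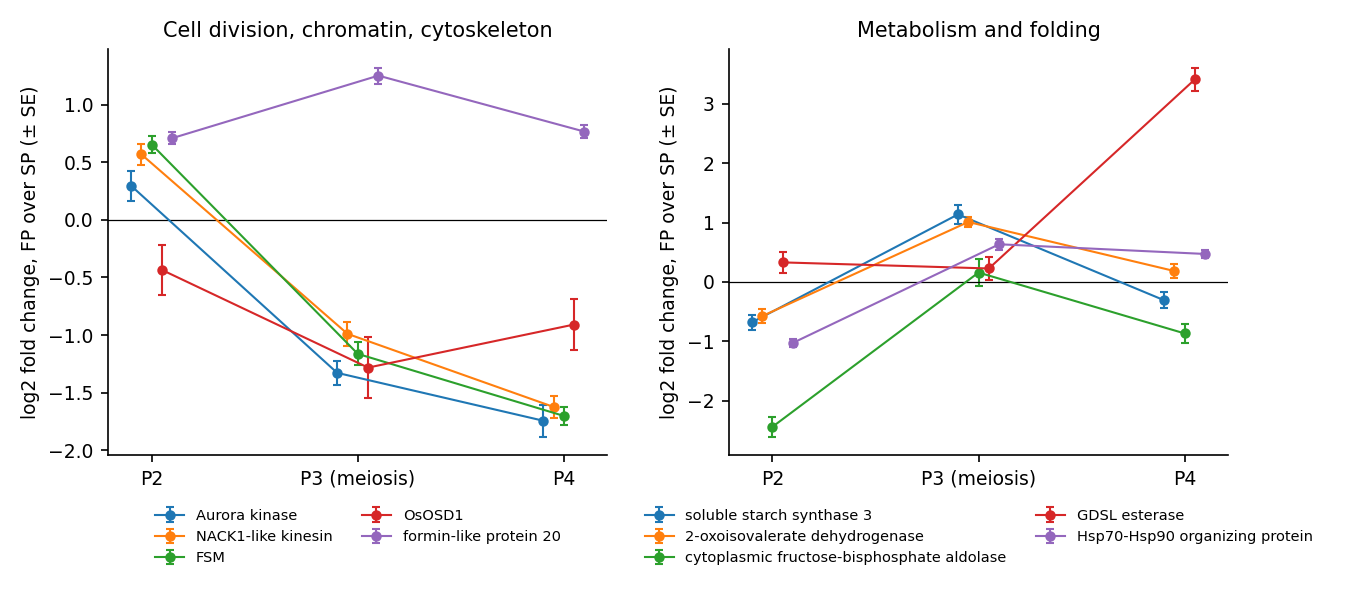
Log2 fold changes of fertile over sterile panicles at P2, P3 and P4 are plotted for 10 named genes, with bars for the SE. Aurora kinase, the NACK1-like kinesin and FSM lie above 0 at P2 and below it at P3 and P4, and starch synthase 3 lies above 0 at P3 alone.

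Leaving out SP3-2 raised the number of calls. Without it 3842 genes rose (15.7%) and 2055 fell (8.40%). Of the 3646 genes that rose with all 6 libraries, 3328 were shared with the fit without SP3-2, which is 91.3% of the list from 6 libraries and 86.6% of the list without SP3-2. Of the 1625 that fell, 1553 were shared, 95.6% and 75.6% of each list. In 58.8% of the genes that fell, SP3-2 lay below both other sterile libraries and above all fertile ones, against 17.9% for SP3-1 and 23.1% for SP3-3. For genes that rose, SP3-2 lay between in 38.7%, against 25.2% for SP3-1 and 30.0% for SP3-3. Across genes, log2 CPM of SP3-2 correlated with that of the fertile libraries at 0.922 to 0.923, and that of SP3-1 and SP3-3 at 0.911 to 0.913.

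**Figure D4:**
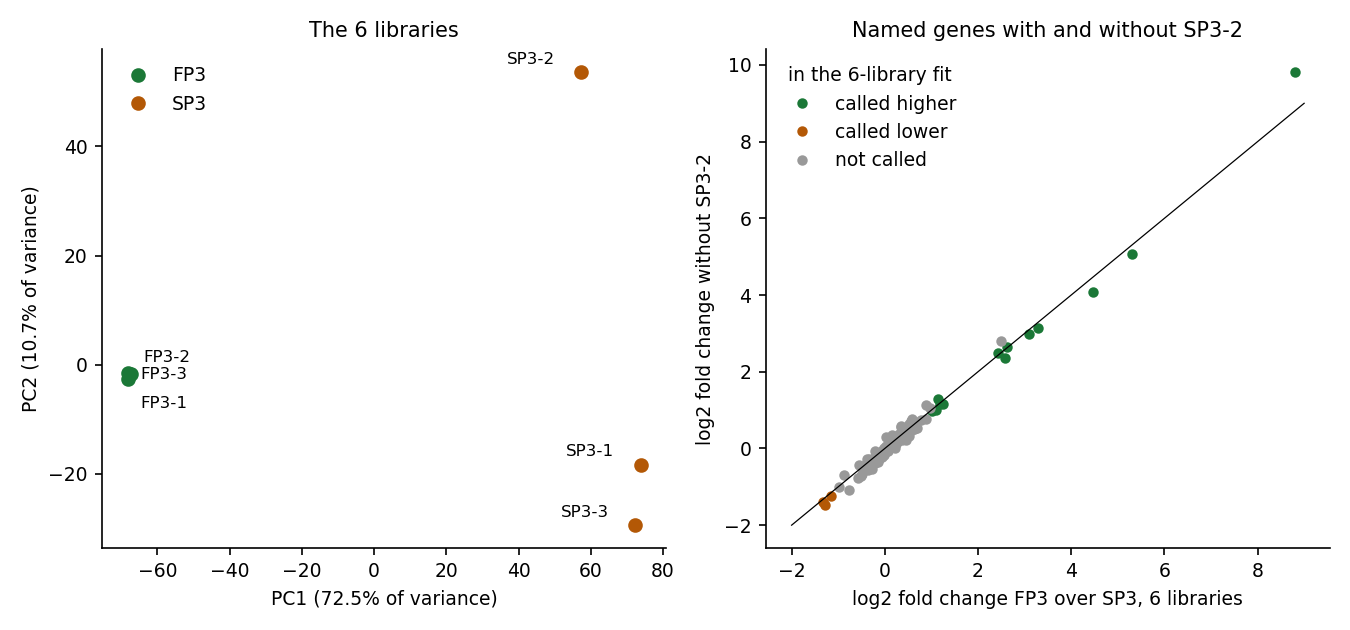
The left panel plots the 6 libraries on the first and second principal components, with FP3 in one cluster and SP3-2 at 53.65 on the second component, away from SP3-1 and SP3-3. The right panel plots the log2 fold change of each named gene without SP3-2 against that with all 6 libraries. Most points lie near the line of equality. Germacrene D synthase lies above it, at 9.82 without SP3-2 and 8.80 with all 6 libraries.

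Among genes that the authors added to the annotation more fell than rose, unlike among the annotated loci. These new genes carry no locus number, and 1376 of 2504 were tested. Of them 395 fell (28.7%) and 120 rose (8.72%), while of 23044 annotated loci 1229 fell (5.33%) and 3522 rose (15.3%). The median level of the 395 new genes that fell was 0.122, 0.110 and 0.0961 CPM in FP3, against 2.10, 1.35 and 1.63 CPM in SP3. The tested new genes together summed to 10591, 11384 and 10875 CPM in FP3 and 21285, 14444 and 12631 CPM in SP3. Without SP3-2, 412 fell and 140 rose. How new genes were found, and from which libraries, is not given in the sources used here. The median length was 2109 bases for the new genes that fell, 1945 bases for those that rose and 2335 bases for all tested new genes, against 2800 bases over all tested genes.

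**Figure D5:**
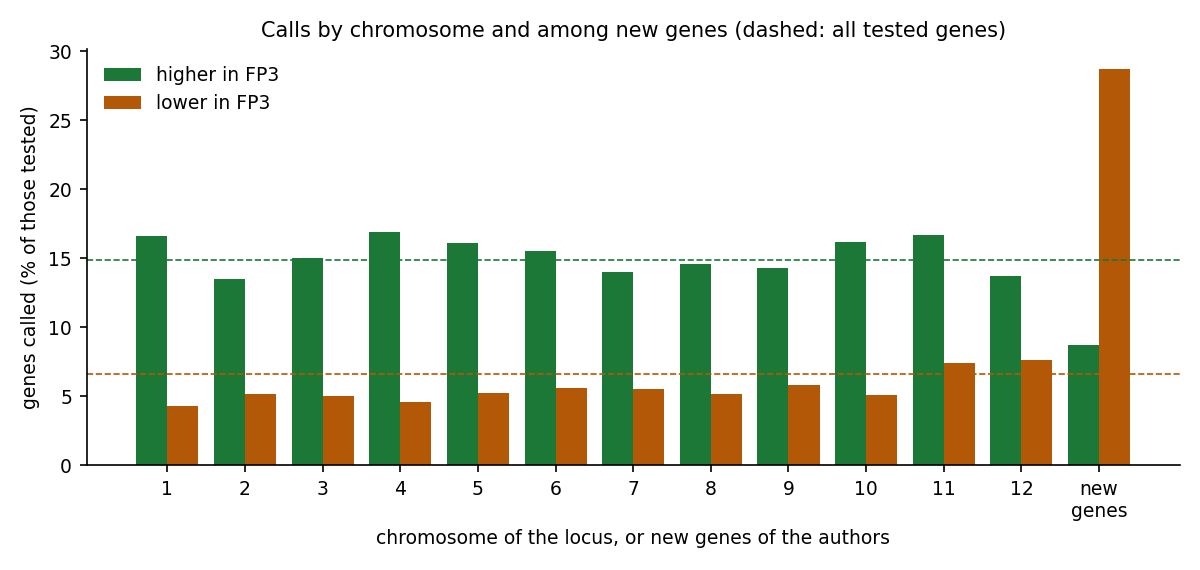
Bars give the percentage of tested genes that rose (left bar) and fell (right bar) in FP3 for the loci of each chromosome and for the authors' new genes, with dashed lines at 14.9% and 6.65% for all tested genes. The chromosomes run from 13.5% to 16.9% for genes that rose, and the new genes stand apart with 28.7% that fell.

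Over the 12 chromosomes, read from the locus identifiers, between 13.5% and 16.9% of the tested loci rose and between 4.28% and 7.63% fell, with the largest shares of falls on chromosomes 11 and 12. Among the tested genes, those of low level and short ones were called more often. In the lowest quintile by mean CPM 25.1% rose and 12.3% fell, and in the highest quintile 5.99% and 3.74%. The count filter could be met by the libraries of either group alone. Low-level genes with few or no reads in the other group were therefore among those tested. How far this raised the shares in the lowest quintile was not tested. In the quintile of shortest genes 23.5% rose, and in that of the longest 6.05%.

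Genes that changed also lay beside each other. The next tested locus along the chromosome also rose for 22.1% of the genes that rose, while 15.3% of all loci rose, and it also fell for 10.1% of the genes that fell, while 5.34% of all loci fell. The longest run was of 10 successive tested loci on chromosome 7, all of which rose, by 1.87 to 6.20 on the log2 scale. Their summed level was 136, 135 and 131 CPM in FP3 and 10.1, 10.4 and 9.99 CPM in SP3. For 8 of these 10 the stage difference was called positive, and their median log2 fold changes were 2.15 at P2 and 2.64 at P4. A run of 9 loci on chromosome 1 summed to 117, 134 and 134 CPM in FP3 and 31.2, 51.7 and 31 CPM in SP3, and a run of 6 on chromosome 11 to 52, 48.8 and 48 CPM in FP3 and 0.99, 0.805 and 0.953 CPM in SP3. All loci of these runs stayed called without SP3-2. Neighbouring loci can be tandem copies that share reads, and whether these do was not tested.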

How the data were processed

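RNA of young panicles was depleted of ribosomal RNA and sequenced as strand-specific libraries. The authors used HISAT2 for mapping against the MSU rice assembly, and StringTie 1.3.1 is named in the submitters' processing notes without a role. The deposited counts of coding genes are whole numbers without normalization. The counting tool, its strand setting and its treatment of reads with several positions are not given in the sources used here. The deposited gene length column, an other measure given by the authors in bases, was used for lengths and for levels per kilobase. It reaches 841244 bases among the tested genes, and whether it includes introns is not given in the sources used here. Lengths and levels per kilobase may therefore not reflect the transcripts. Tables of FPKM, lncRNAs and circRNAs were not used here.

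Genes that reached 10 counts in 3 or more P3 libraries were tested with edgeR 4.0.16 in R 4.3.3 (TMM, quasi-likelihood test, no block, Benjamini-Hochberg adjustment over all 24452 genes). SEs are approximate, the log2 fold change over the root of F. The stage difference was fitted over all 18 libraries, for the genes that passed the P3 filter. P-values set the difference between groups against the spread between the 3 libraries of a group, which the paper calls biological replicates. They do not cover spread between repeats of the incubator or field treatment, since no such repeat is described. The precision of counts depends on the total of each library. On simulated P3 data of 23937 genes, 61% of changes of 1.5 (log2) and 73% of changes of 2 were recovered, with 10 false calls. Tables were made with Python 3.11.15.

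The members and lists were chosen with earlier results of these data known. The rule for named genes took those of smallest P in each direction, limited to 2 each where no name is paired with the locus, and members of the lists, called ones first. Other named genes were chosen after their values were seen. Lists of tapetum, meiosis, hormone, clock and heat genes were planned but not used, since no table used here pairs their loci with names. The functional groups were made here after the data files were at hand, in place of the planned lists. They hold parental genes by the study's annotation and predicted miRNA targets that the study names. The lists of miRNA targets come from the study's prediction. The alternatives were DESeq2 1.42.0, other scalings and filters, all 18 libraries, a replicate block, an adjusted P below 0.01, leaving out genes over 1% of a library, each library left out, and thinning to the smallest library, which was added after the data were seen.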

Additional observations from a re-analysis of the deposited data

Results flagged for a closer look

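For 11 of the named genes the difference between fertile and sterile panicles at P3 differed from the mean of that at P2 and P4, at an adjusted P below 0.05 in edgeR's quasi-likelihood test over 18 libraries and a size of at least 1. On the log2 scale the stage difference was 2.33 for OMTN1, 1.25 for OMTN6, 1.19 for trichome birefringence-like 38, 1.76 for germacrene D synthase, 1.63 for soluble starch synthase 3, 1.21 for 2-oxoisovalerate dehydrogenase and 1.81 for the cytoplasmic aldolase. It was -1.65 for the GDSL esterase and -1.06 for an ESKIMO 1-like gene on chromosome 3, with log2 fold changes of 0.14 at P3, 0.66 at P2 and 1.73 at P4. LOC_Os08g08970 had a stage difference of 1.63, with rises of 6.59 at P2 and 5.41 at P4. For LOC_Os12g38900, which fell at all 3 stages, it was 1.38, with log2 fold changes of -5.34 at P2 and -6.32 at P4, so that its fall was smallest at P3.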

How the results depend on the processing

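The numbers were 5271 genes called at P3 and 2267 with a stage difference. With at least 100 counts in 3 libraries, which leaves fewer genes to test, 3273 were called, 2334 higher and 939 lower. Other scalings, DESeq2, no filter, the 18-library fit and thinning kept the P3 count within 1.5 times. Leaving out each library in turn gave 4618 to 5897 genes at P3, 3098 to 3842 higher and 1449 to 2055 lower, and 2049 to 2705 stage differences. Against P2 alone there were 3526 stage differences, 1679 of them negative, and the cause was not tested. Of the 103 named genes 16 were called, and 17 or 18 when each library was left out. The 5 NAC genes stayed called throughout.

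Replicate numbers gave no sign of pairing the libraries, as deviations of same-numbered libraries correlated at -0.022 to 0.00269. With 3 libraries per group this check cannot exclude pairing. With the replicate block 4498 genes were called at P3, 3169 higher and 1329 lower.

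Among named genes the direction turned for some that were not called. When each library was left out, log2 fold changes ran from -0.18 to 0.10 for OsGAI, from -0.12 to 0.27 for the ESKIMO 1-like gene and from -0.07 to 0.35 for aldolase. OsGAI came to 0.02 with the replicate block. Polyubiquitin came to -0.08 with the replicate block. 2-oxoisovalerate dehydrogenase lies at the fold threshold and was lost under 10 of its alternatives.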
